A study of Mus musculus with 4 samples.

Results

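The 10 immediate early genes *Fos*, *Fosb*, *Jun*, *Junb*, *Egr1*, *Arc*, *Npas4*, *Nr4a1*, *Ier2* and *Atf3* were followed in RNA-seq of sorted cells from the mouse main olfactory epithelium (MOE). They were taken by name from a table of 24421 genes, and all 10 were listed. Cells came from 2 transgenic lines, named TAAR enhancer 1-GFP and, for the tdTomato reporter, TAAR enhancer 2-tdTomato, in which 1 enhancer of the trace amine-associated receptor (*Taar*) cluster sits before the minimal promoter of mouse Hsp68 and drives the reporter. GFP-positive and GFP-negative cells were collected from the former, and the latter gave tdTomato-positive and tdTomato-negative cells, so that reporter-negative cells also carry the transgene. Each line descends from 1 founder that was kept, and animals of like age and genotype were pooled for sorting. The labels give the strain as C57BL/6 and call the mice adult, while the study's reporting form describes its lines as of mixed background and gives an earlier postnatal age. Each of the 4 groups is 1 library, so no group has a replicate, and no test was run. Values are TPM, transcript abundance relative to the whole library after correction for transcript length. They add up to the same total in every library and do not show its sequencing depth.

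Immediate early genes are switched on within minutes of a stimulus, without new protein synthesis, by transcription factors that are already present in the cell, such as CREB, SRF and the ternary complex factors. Many encode transcription factors themselves: FOS and JUN family proteins pair to form AP-1, which then acts on later genes. In neurons, including olfactory sensory neurons (OSNs), they are widely used as a readout of recent activity, and they are also known to be induced by tissue dissociation with enzymes. The cells here were released from the MOE with papain and trituration before sorting.

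CREB binds the cAMP response element, with the core TGACG, and promoter windows from RefSeq (GRCm38.p6) were available for 7 of the 10 genes. The windows of *Fos*, *Jun* and *Nr4a1* are shown because *Fos* and *Jun* were the most abundant of the genes and *Nr4a1* had the lowest reporter-positive to reporter-negative ratio of the 10 genes in the tdTomato line. Each run holds the 250 bases before the annotated start, on the strand of the gene, with TGACG or its reverse complement CGTCA in capitals. *Fos* spans chr12:85473890-85477273 (plus strand), *Jun* chr4:95049034-95052222 (minus strand) and *Nr4a1* chr15:101254269-101274795 (plus strand) in GENCODE M21. The *Nr4a1* window lies inside that span. The windows lie at chr12:85473640-85473889 on the plus strand, chr4:95052223-95052472 on the minus strand and chr15:101266596-101266845 on the plus strand, in this order.
Fos: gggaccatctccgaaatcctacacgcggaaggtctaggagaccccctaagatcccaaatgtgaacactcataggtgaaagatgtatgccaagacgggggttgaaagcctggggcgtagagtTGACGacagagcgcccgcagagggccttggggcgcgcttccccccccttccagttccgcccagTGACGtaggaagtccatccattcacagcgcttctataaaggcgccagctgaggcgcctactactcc
Jun: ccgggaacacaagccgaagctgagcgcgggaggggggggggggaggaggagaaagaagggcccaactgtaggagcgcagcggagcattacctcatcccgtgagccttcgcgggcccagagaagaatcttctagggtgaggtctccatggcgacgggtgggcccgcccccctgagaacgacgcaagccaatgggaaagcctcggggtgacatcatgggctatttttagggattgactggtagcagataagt
Nr4a1: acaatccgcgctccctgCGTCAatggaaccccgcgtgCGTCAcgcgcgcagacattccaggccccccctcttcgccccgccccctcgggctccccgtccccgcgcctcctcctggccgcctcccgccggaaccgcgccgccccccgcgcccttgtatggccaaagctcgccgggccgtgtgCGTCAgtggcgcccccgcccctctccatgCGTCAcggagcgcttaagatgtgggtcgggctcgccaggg

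Searched on both strands of the full windows, which reach 50 bases past the start and are 300 bases long, TGACG was found in 6 of the 7 genes (*Fos*, *Fosb*, *Junb*, *Atf3*, *Nr4a1* and *Npas4*) and in 20.8% of 32851 such windows of the genome, in which a gene with several starts has several windows. In *Fos* it began 129 and 66 bases before the start, and a TATAAA began 33 bases before it. *Nr4a1* held 4 copies, 233, 213, 69 and 40 bases before the start, all on the other strand. The letters were not in the window of *Jun*. The full palindrome TGACGTCA, which contains TGACG, was in none of the 7 windows and in 1.79% of all windows. The AP-1 site TGAGTCA (5.20% of all windows) and the CArG box bound by SRF (1.63%) were in none of the 7 either. The EGR site GCGGGGGCG was in the windows of *Fosb* and *Nr4a1* and in 2.91% of all windows, and its other form GCGTGGGCG in none of the 7 and in 0.612%. TATAAA was found in *Fos* and *Junb* and in 13.6% of all windows. These matches describe the letters and are not binding sites. Bases outside the windows were not searched, so such letters may lie farther from the start.

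*Fos*, whose product is the classic partner of JUN in AP-1, reached 711 TPM in GFP-negative, 971 TPM in GFP-positive, 677 TPM in tdTomato-negative and, in tdTomato-positive cells, 646 TPM. It was high in all 4 libraries, above at least 99.0% of the genes detected in each. *Jun*, which can pair with itself or with FOS proteins, stood at 555, 663, 454 and 709 TPM in the same order. It was the second most abundant of the 10 genes in 3 libraries, and in tdTomato-positive cells it exceeded *Fos*. The highest value of *Fos* was 1.5 times its lowest and that of *Jun* 1.56 times.

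*Junb*, a JUN family member, stood at 481 TPM in GFP-negative, 308 TPM in GFP-positive, 347 TPM in tdTomato-negative and, in tdTomato-positive cells, 189 TPM. *Fosb*, a FOS family member with a long-lived splice form, stood at 231, 191, 189 and 119 TPM. Both genes were lower in the reporter-positive than in the reporter-negative library of each line. *Atf3*, a stress-responsive bZIP factor of the ATF/CREB family, stood at 63.0, 96.3, 52.0 and 25.2 TPM. It was highest in GFP-positive and lowest in tdTomato-positive cells.

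*Egr1*, a zinc finger transcription factor, was the steadiest of the genes in TPM as deposited. It stood at 189 TPM in GFP-negative, 249 TPM in GFP-positive, 238 TPM in tdTomato-negative and, in tdTomato-positive cells, 224 TPM. Its highest value was 1.32 times its lowest. The log2 ratio of *Egr1* in GFP-positive over GFP-negative cells was 0.40 as deposited. With median-ratio scaling it was 1.28, and with the mature OSN markers set equal 3.44. *Ier2*, a nuclear protein of the early growth factor response, stood at 208, 223, 274 and 112 TPM. *Nr4a1*, an orphan nuclear receptor, stood at 237, 141, 298 and 81.4 TPM. For both genes the tdTomato-positive library was the lowest and the tdTomato-negative library the highest.

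*Arc* encodes a synaptic protein that acts in AMPA receptor endocytosis, and it spread most among the libraries. It stood at 3.45 TPM in GFP-negative, 17.3 TPM in GFP-positive, 2.28 TPM in tdTomato-negative and, in tdTomato-positive cells, 92.9 TPM. Its highest value was 40.7 times its lowest, and it moved from above 11.7% of the detected genes in tdTomato-negative cells to above 84.7% in tdTomato-positive cells. *Npas4*, a bHLH-PAS factor induced by calcium entry in neurons, was close to the low end everywhere, at 3.44, 0.629, 1.02 and 1.77 TPM. It was the lowest of the 10 genes in all libraries, although in GFP-negative cells it differed from *Arc* by little.

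**Figure D1:**
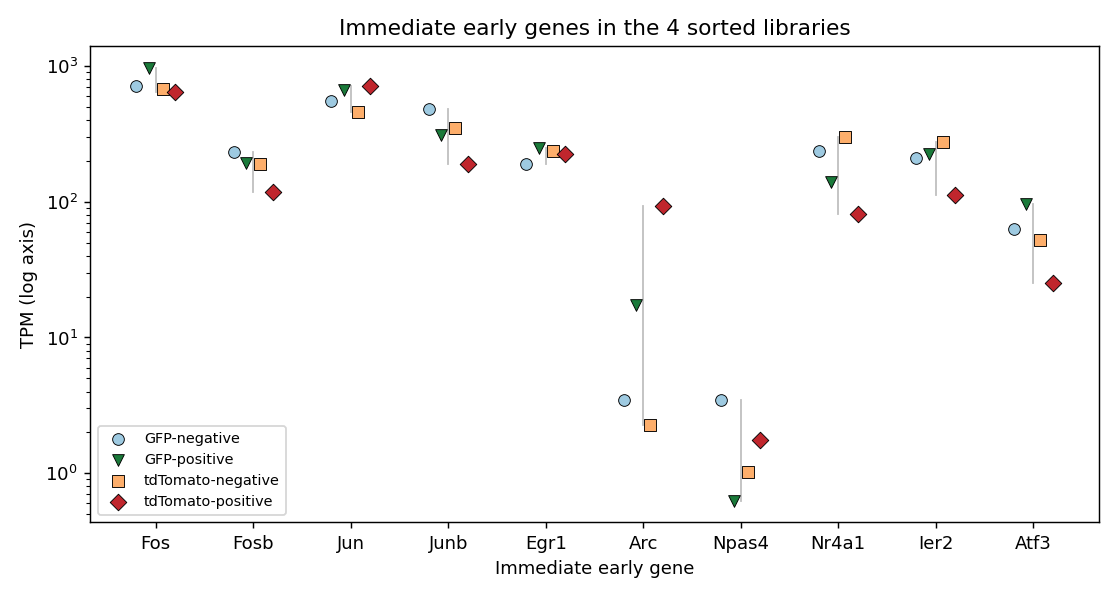
TPM of the 10 immediate early genes (log axis) in each of the 4 sorted libraries, with 1 point per library and a grey line over their range. *Fos*, *Jun*, *Junb*, *Fosb*, *Egr1* and *Ier2* stayed above 100 TPM in all 4 libraries, while *Arc* ranged from 2.28 to 92.9 TPM.

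Added up, the 10 genes gave 2683 TPM in GFP-negative, 2859.7 TPM in GFP-positive, 2531 TPM in tdTomato-negative and, in tdTomato-positive cells, 2199 TPM. These sums differed by at most 1.30-fold. *Fos*, *Fosb*, *Jun*, *Junb*, *Egr1* and *Ier2* lay above 87.8% to 99.5% of the detected genes in every library. For the 8 members at 10 TPM or more in every library, the median ratio of the highest to the lowest library was 2.2, beside a median of 2.46 over the 7409 genes that met the same minimum.

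The share of the sum taken by each gene is independent of how a library was scaled, so ratios within a library were compared as well. *Jun* over *Fos* was 0.780 in GFP-negative, 0.683 in GFP-positive, 0.671 in tdTomato-negative and 1.10 in tdTomato-positive cells. *Junb* over *Jun* was 0.868, 0.464, 0.765 and 0.267. *Fosb* over *Fos* was 0.325, 0.197, 0.279 and 0.183. Within the AP-1 genes, *Junb* and *Fosb* thus made up less beside *Jun* and *Fos* in both reporter-positive libraries than in both reporter-negative ones. *Nr4a1* over *Fos* was 0.334, 0.145, 0.441 and 0.126, and *Nr4a1* over *Egr1* was 1.26, 0.565, 1.26 and 0.364. Both *Nr4a1* ratios were lower in the 2 reporter-positive libraries. *Egr1* over *Fos* ranged from 0.256 to 0.351 and followed the line, not the reporter, with the lower values in the GFP line. *Atf3* over *Fos* was 0.0886, 0.0992, 0.0768 and 0.0390, lowest in tdTomato-positive cells. *Ier2* over *Fos* was 0.293, 0.230, 0.404 and 0.173. *Arc* over *Fos* was 0.00485, 0.0178, 0.00337 and 0.144, higher in both reporter-positive libraries.

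**Figure D2:**
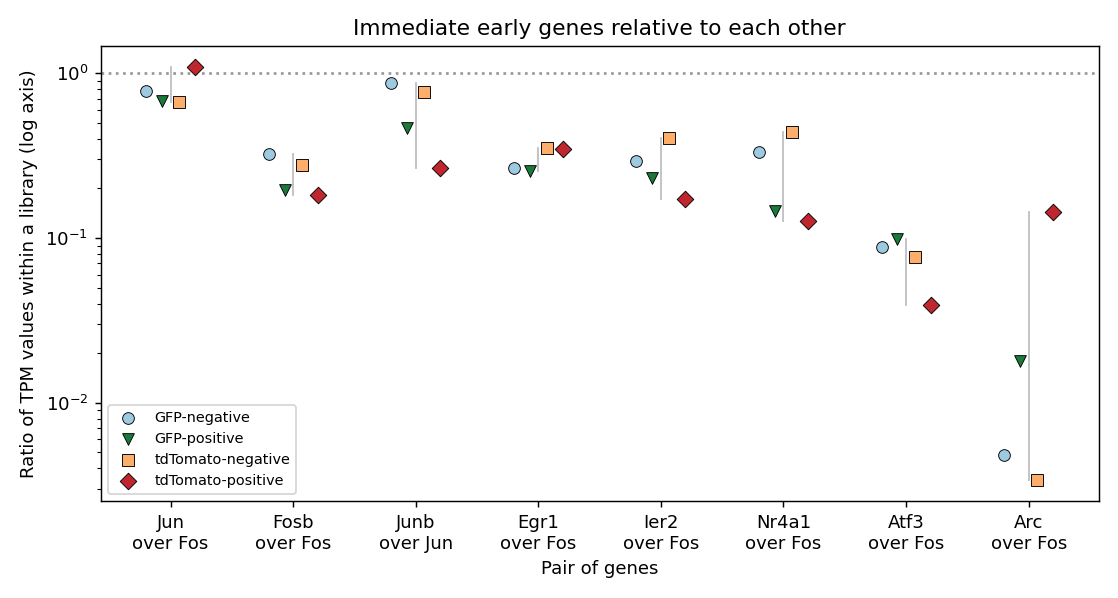
Ratios of TPM between pairs of immediate early genes within a library (log axis), with 1 point per library, a grey line over their range and a dotted line at equal levels. *Junb* over *Jun* was 0.464 and 0.267 in the reporter-positive libraries and 0.868 and 0.765 in the reporter-negative ones.

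The comparison of GFP-positive with GFP-negative cells asked how the genes differ in the cells that TAAR enhancer 1 marks. On the log2(TPM + 1) scale, which understates differences of low genes, *Arc* was 4.12-fold higher in GFP-positive cells (2.04), and *Npas4* was lower by 1.44 (-1.44), its value passing the minimum of 1 TPM only in GFP-negative cells. The other 8 genes lay within 2-fold, from -0.75 for *Nr4a1* and -0.64 for *Junb* through -0.27 for *Fosb*, 0.10 for *Ier2*, 0.26 for *Jun*, 0.40 for *Egr1* and 0.45 for *Fos* to 0.60 for *Atf3*. Of the 16173 genes that passed the minimum, 14.2% were at least 2-fold higher and 45% at least 2-fold lower, so 1 gene of 10 in each direction was no more than this background. The median was 0.18 over the 10 genes and -0.88 over all genes, and 9 of the 10 lay above the median of all genes, *Npas4* being the exception.

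In the tdTomato line, *Arc* was 28.6-fold higher in tdTomato-positive than in tdTomato-negative cells (4.84). *Nr4a1* was 3.64-fold lower (-1.86), *Ier2* 2.44-fold lower (-1.29) and *Atf3* 2.02-fold lower (-1.01). *Atf3* was just past 2-fold, and it lay within 2-fold with a pseudocount of 10 (-0.82), with median-ratio scaling (-0.86) and without the highest genes (-0.96), each of which left 2 genes lower. The other 6 lay within 2-fold, at -0.87 for *Junb*, -0.67 for *Fosb*, -0.09 for *Egr1*, -0.07 for *Fos*, 0.45 for *Npas4* and 0.64 for *Jun*. Among 15777 genes, 17.2% were at least 2-fold higher and 23.2% at least 2-fold lower, beside 1 and 3 of the 10 genes. The median was -0.38 over the 10 genes and -0.23 over all genes.

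**Figure D3:**
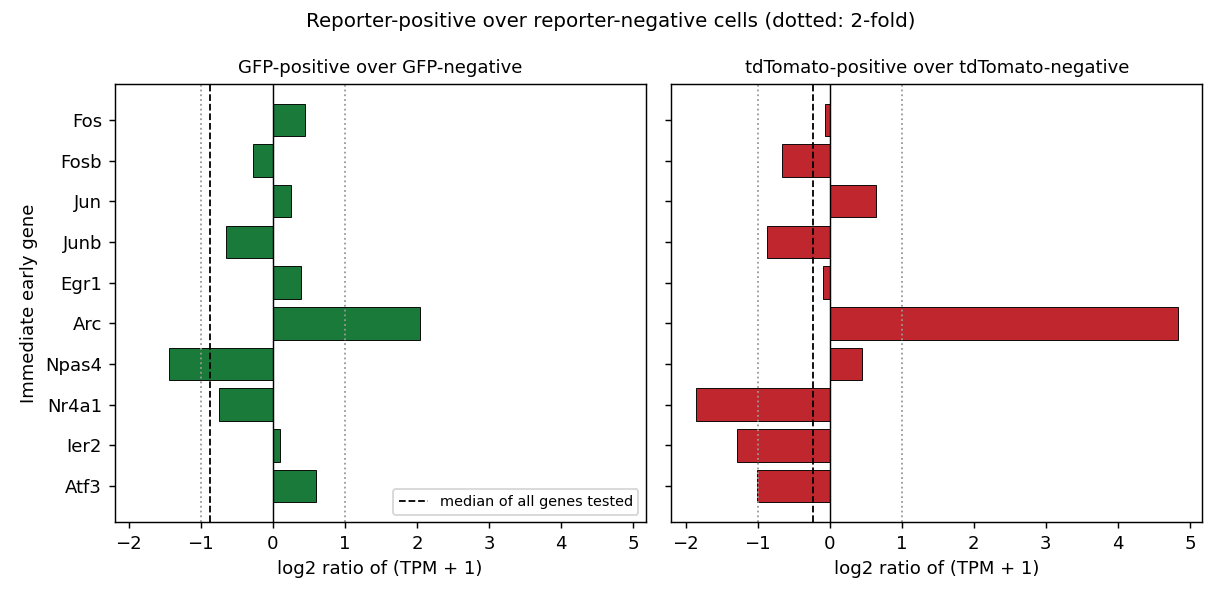
Log2 ratio of (TPM + 1) of reporter-positive over reporter-negative cells for each immediate early gene in the 2 lines (bars), with the median of all genes dashed and 2-fold dotted, 1 library per group. *Arc* was higher in both lines (2.04 and 4.84), and *Atf3* lay on opposite sides of 0 (0.60 and -1.01).

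The direction of several genes depended on how the libraries were scaled. The median of all genes in the GFP line shifted by 0.81 with median-ratio scaling over 11943 genes, by 0.45 when the 24 genes among the highest were removed and by 2.86 when the 12 mature OSN markers were set equal. In the tdTomato line these shifts were 0.15, 0.05 and 0.94. Of the 10 genes, 5 were at least 2-fold higher and 0 lower in GFP-positive cells with median-ratio scaling, at 21.4% and 21.7% of all genes. In the GFP line *Fosb*, *Junb*, *Nr4a1* and *Npas4* were lower as deposited, but *Fosb*, *Junb* and *Nr4a1* turned higher under at least 2 of the 3 scalings and *Npas4* under the OSN marker scaling. In the tdTomato line *Fos* and *Egr1* turned higher under 2 scalings and *Fosb* and *Junb* under the OSN marker scaling. *Arc* stayed higher in both lines under all 5 alternatives of scaling and pseudocount (1.02 to 4.77 and 3.07 to 5.43), and *Nr4a1*, *Ier2* and *Atf3* stayed lower in the tdTomato line (-1.87 to -0.85, -1.29 to -0.27 and -1.04 to -0.02). Relative to the median of all genes, *Arc* was 2.92 and 5.07 higher in the 2 lines, *Fos* 1.32 higher in the GFP line and *Nr4a1* 0.12 higher in the GFP line and 1.63 lower (-1.63) in the tdTomato line.

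The 2 other pairings share these libraries and serve only to place the values. Between the 2 reporter-negative libraries, tdTomato over GFP, the 10 genes ran from -1.13 for *Npas4* to 0.39 for *Ier2*, and 0 were at least 2-fold higher and 1 lower, beside 11.4% and 12.4% of 15899 genes. Between the 2 reporter-positive libraries, *Arc* was 5.13-fold higher in tdTomato-positive cells (2.36, but 0.22 with the OSN marker scaling) and *Atf3* 3.71-fold lower (-1.89), while *Ier2* (-0.99), *Nr4a1* (-0.78), *Junb* (-0.70), *Fosb* (-0.68), *Fos* (-0.59), *Egr1* (-0.15), *Jun* (0.10) and *Npas4* (0.76) lay within 2-fold. Of 15121 genes, 34.9% were at least 2-fold higher and 11.7% at least 2-fold lower. With median-ratio scaling 1 of the 10 genes was higher and 6 were lower, beside 13.1% and 19.0% of all genes, and *Jun* turned to the lower side under all 3 scalings and *Npas4* under the OSN marker scaling.

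The sorted cells differed in more than the reporter. The 10 most abundant genes took 5.72% of all TPM in GFP-negative, 31.5% in GFP-positive, 5.90% in tdTomato-negative and 9.44% in tdTomato-positive cells. Markers of many cell types differed between the libraries, and in bulk RNA a lower number of cells and less RNA per cell cannot be told apart. The 12 mature OSN markers summed to 27841 TPM in GFP-negative, 3065 TPM in GFP-positive, 28641 TPM in tdTomato-negative and, in tdTomato-positive cells, 12861 TPM, with 12 of 12 and 6 of 12 at least 2-fold lower in the reporter-positive library of the GFP and tdTomato line. The 9 Bowman gland markers summed to 2374, 113301, 6899 and 55472 TPM, with 3 secretory genes, *Bpifb9a*, *Bpifb9b* and *Bpifa1*, giving 2340.4, 111649, 6839 and 55134 TPM of that. All 9 exceeded 2-fold in GFP-positive cells, and in the tdTomato line 7 did so in tdTomato-positive cells while *Muc2* (12.2 and 3.74 TPM) and *Sox10* (3.41 and 0.958 TPM) were lower there. The 10 multiciliated cell markers summed to 579.6, 2692, 593 and 9039.7 TPM, and in the GFP and tdTomato line 9 and 10 markers exceeded 2-fold in the reporter-positive library. Among the multiciliated markers *Ccdc153* was at 0 in GFP-negative and *Mcidas* at 0 in tdTomato-negative cells. Of the 2 reporter-positive libraries *Arc* was higher in tdTomato-positive cells, and so were the sums of the multiciliated, mature OSN, immature OSN and olfactory ensheathing glia lists among others. Neutrophil markers other than *Ltf*, which gland cells also express, summed to 9379, 69.8, 2388 and 5.17 TPM, and these 9 markers were at least 2-fold lower in the reporter-positive cells of each line. *Ltf* itself stood at 665, 1691, 496 and 286 TPM, more than 2-fold higher in GFP-positive cells. The 8 lymphocyte markers summed to 788, 2.47, 433 and 4.87 TPM. The part of these cell types in the values of the immediate early genes was not tested.

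Sums of the other markers also differed between the libraries. Sustentacular cell markers (9 genes) summed to 1563, 15033, 2759 and 13910 TPM. In the GFP line all 9 exceeded 2-fold in GFP-positive cells, while in the tdTomato line 5 were higher and 2, *Cyp2g1* (248 and 84.9 TPM) and *Cyp1a2* (36.9 and 10.9 TPM), were lower. Immature OSN markers (8 genes) summed to 3152, 754, 2439.9 and 1196 TPM. Horizontal basal cell markers (5 genes) summed to 63.0, 629, 152 and 29.1 TPM, higher in GFP-positive than in GFP-negative cells and lower in tdTomato-positive than in tdTomato-negative cells. Macrophage and monocyte markers (11 genes) summed to 2867, 2125, 1038 and 1787 TPM, of which *Lyz2* gave 1581, 2043, 707 and 1707 TPM, and without it the other 10 summed to 1286, 81.7, 331 and 80.5 TPM. In this list 10 of 11 markers were at least 2-fold lower in GFP-positive cells and 8 of 11 in tdTomato-positive cells. Other lists were those of tuft cells and ionocytes (71.4 to 273 TPM), mast cells (6.08 to 18.0 TPM, all of it *Kit*, which other cell types also express, in every library but the GFP-negative one), endothelial cells (1.72 to 53.1 TPM), fibroblasts (49.6 to 412 TPM), olfactory ensheathing glia (18.1 to 58.7 TPM) and erythroid cells (4.79 to 90.2 TPM, with all 4 hemoglobin genes at 0).

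**Figure D4:**
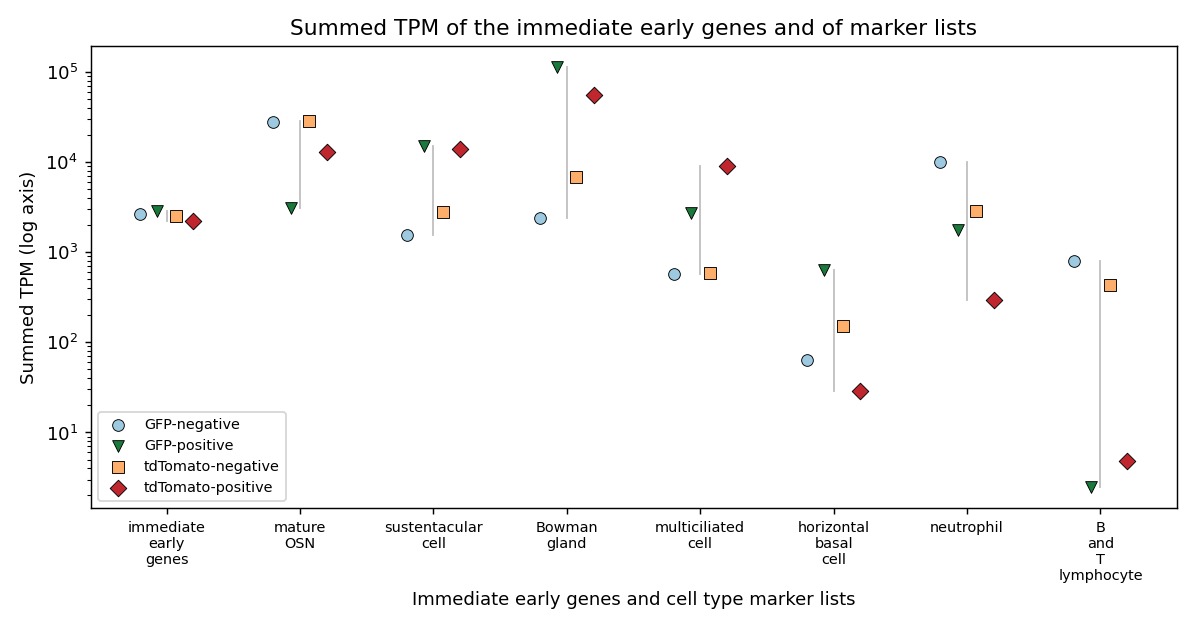
Summed TPM (log axis) of the immediate early genes and of 7 marker lists in the 4 libraries, with 1 point per library and a grey line over their range. The mature OSN sum was 27841 and 28641 TPM in reporter-negative and 3065 and 12861 TPM in reporter-positive cells, while the sum of the 10 immediate early genes ranged from 2199 to 2859.7 TPM. All sums are of TPM as deposited, and their spread depends on how the libraries are scaled.

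Other genes of the same system were examined in lists written by gene family, and the directions given for them are those of TPM as deposited. Their counts are to be read against all genes, of which 14.2% were at least 2-fold higher and 45% lower in the GFP line (median -0.88) and 17.2% and 23.2% in the tdTomato line (median -0.23). With the 12 mature OSN markers set equal, the medians of all 6 lists were above 0 in the GFP line (0.18 to 2.99), and in the tdTomato line all but that of the feedback regulators (-0.51) were above 0 (0.34 to 1.54). Of 16 other AP-1 and ATF genes that passed the minimum in the GFP line, 2 were at least 2-fold higher and 10 at least 2-fold lower, with a median of -1.26 beside -0.88 over all genes. The 2 higher genes were of low abundance in GFP-negative and GFP-positive cells, *Batf2* at 0 and 1.56 TPM and *Crem* at 0.941 and 3.75 TPM. In the tdTomato line 0 of 15 were at least 2-fold higher and 5 lower, with a median of -0.62 beside -0.23. *Jund*, the JUN family member that is expressed without stimulus, stood at 143, 149, 72.0 and 144 TPM in GFP-negative, GFP-positive, tdTomato-negative and tdTomato-positive cells. *Atf5*, an OSN-enriched bZIP factor, stood at 1790, 357, 1717 and 987 TPM. It was lower in both reporter-positive libraries, as were *Batf* (25.0, 2.58, 47.5 and 4.25 TPM), a bZIP factor of lymphoid and myeloid cells, and *Atf4* (535, 316.5, 444 and 326 TPM), the factor of the integrated stress response. *Mafg* stood at 51.8, 21.3, 50.5 and 80.3 TPM, and *Batf3* was listed at 0 in tdTomato-positive cells beside 10.3 TPM in tdTomato-negative cells.

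The next list held other early transcription factors outside the AP-1 family. In the GFP line 3 of 18 were at least 2-fold higher and 9 lower (median -0.83, and 0.01 with median-ratio scaling), and in the tdTomato line 4 of 19 higher and 8 lower (median -0.64). The shares over all genes were 14.2% and 45% in the GFP line, close to those of the list, and 17.2% and 23.2% in the tdTomato line. *Id1*, an inhibitor of bHLH factors, was higher in both reporter-positive libraries, at 65.5, 254, 70.5 and 125 TPM. *Sox9*, which is also one of the Bowman gland markers used here, stood at 1.02, 18.0, 1.78 and 27.5 TPM. *Csrnp1* (78.6, 14.0, 94.6 and 11.7 TPM), a cysteine-serine-rich nuclear protein, and *Myc* (20.7, 6.58, 25.5 and 0.0493 TPM) were lower in both reporter-positive libraries. The differences of *Klf6* (-0.51 and -0.35) and *Bhlhe40* (-0.20 and -1.11) were smaller, and that of *Bhlhe40* passed 2-fold in the tdTomato line.

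Of the genes that feed back on the response, or act after it, 2 of 31 in the tdTomato line were at least 2-fold higher and 21 lower (median -1.51), beside 17.2% and 23.2% of all genes and a median of -0.23. In the GFP line 1 of 30 was higher and 13 were lower (median -0.78, and 0.09 with median-ratio scaling), beside 14.2% and 45% of all genes and a median of -0.88, so the share that was lower was close to that of all genes. *Zfp36*, which promotes decay of AU-rich mRNAs, stood at 573, 333, 669.8 and 157 TPM, and *Dusp1*, a MAP kinase phosphatase, at 438, 299, 356 and 209 TPM. *Ppp1r15a*, a regulator of the eIF2α phosphatase, stood at 378, 145, 257 and 172 TPM. *Pim1*, a serine/threonine kinase, stood at 209, 25.9, 315 and 45.1 TPM. *Dusp2* (82.3, 1.54, 39.9 and 0.0730 TPM) and *Ptgs2* (41.1, 2.84, 179 and 0.570 TPM) were the lowest by ratio in the GFP and tdTomato line. Among genes of this list with at least 10 TPM, *Cyr61* (9.76, 120.0, 30.4 and 55.9 TPM), a matricellular protein, was the highest by ratio in the GFP line. With the same limit, the highest in the tdTomato line was *Nab2* (7.82, 12.6, 6.57 and 22.8 TPM), a corepressor of EGR proteins. *Bdnf*, which stayed below 10 TPM, had a log2 ratio of 1.99 in that line, above the 1.66 of *Nab2*. Like *Dusp2* and *Ptgs2*, the sums of several marker lists were lower in both reporter-positive libraries. Among them were neutrophil markers without *Ltf*, lymphocyte markers, macrophage markers without *Lyz2* and mature OSN markers. From GFP-negative to tdTomato-negative cells that neutrophil sum went from 9379 to 2388 TPM, *Dusp2* from 82.3 to 39.9 TPM and *Ptgs2* from 41.1 to 179 TPM. The part of these cell types in the values was not tested.

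The next list held regulators that act upstream of the early genes. Of 20 in the GFP line, 0 were at least 2-fold higher and 14 lower (median -1.14), and in the tdTomato line 1 was higher and 3 were lower (median -0.61). *Mapk3*, which encodes ERK1, stood at 192, 146, 159 and 199 TPM. *Mef2d* (63.8, 20.9, 121 and 68.7 TPM), *Mef2a* (116, 33.8, 120 and 67.5 TPM) and *Crtc2* (85.9, 25.0, 98.7 and 47.5 TPM), a coactivator of CREB, were lower in both reporter-positive libraries. *Mef2c* stood at 18.8 and 1.59 TPM in GFP-negative and GFP-positive cells and at 9.24 and 11.7 TPM in the tdTomato line, *Nfkb1* at 41.0, 36.3, 53.2 and 34.7 TPM and *Crtc3* at 30.3, 8.72, 52.1 and 22.0 TPM. *Mkl2*, a coactivator of SRF, was the highest by ratio in the tdTomato line (11.9 and 25.3 TPM).

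The median of the chaperone genes lay above that of all genes in both lines. In the GFP line 4 of 13 were at least 2-fold higher and 1 lower (median -0.07, and 0.82 with median-ratio scaling), and in the tdTomato line 5 of 13 higher and 0 lower (median 0.53). *Hspb1*, a small heat shock protein, stood at 6.94, 207, 46.4 and 257 TPM and *Bag3*, a co-chaperone, at 5.45, 27.4, 8.69 and 50.4 TPM. *Hsp90aa1* stood at 770.2, 713, 926 and 2368 TPM, highest in tdTomato-positive cells, and *Hsph1* at 73.5, 92.0, 64.8 and 333 TPM. *Hsp90ab1* (2438, 1223, 2614 and 2732 TPM) and *Hspa5* (711, 679, 606 and 645 TPM) were abundant in all libraries, and *Hspa8* was 2554, 1341, 2752 and 2691 TPM and *Dnaja1* 190, 72.1, 221 and 179 TPM. *Hspa1a* (34.8, 88.7, 133 and 160 TPM) and *Hspa1b* (60.6, 162, 176 and 388 TPM) are near-identical paralogs whose split is uncertain. Of the genes regulated by activity in OSNs, 6 of 6 were at least 2-fold lower in the GFP line (median -2.58) and 2 of 6 in the tdTomato line (median -0.49), while with the mature OSN markers set equal the medians were 0.18 and 0.50. *S100a5* stood at 6636, 593, 5667 and 5146 TPM and *Kirrel2*, a cell adhesion molecule of OSN axons, at 631, 38.0, 751 and 466 TPM. *Pcp4l1* stood at 1054, 310.5, 1015 and 1866 TPM and *Efna5*, an ephrin ligand in OSN axon sorting, at 27.4, 5.86, 66.1 and 17.3 TPM. The sum of the mature OSN markers was lower in both reporter-positive libraries, while *Pcp4l1* was higher in tdTomato-positive than in tdTomato-negative cells. The part of mature OSNs in these values was not tested.

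**Figure D5:**
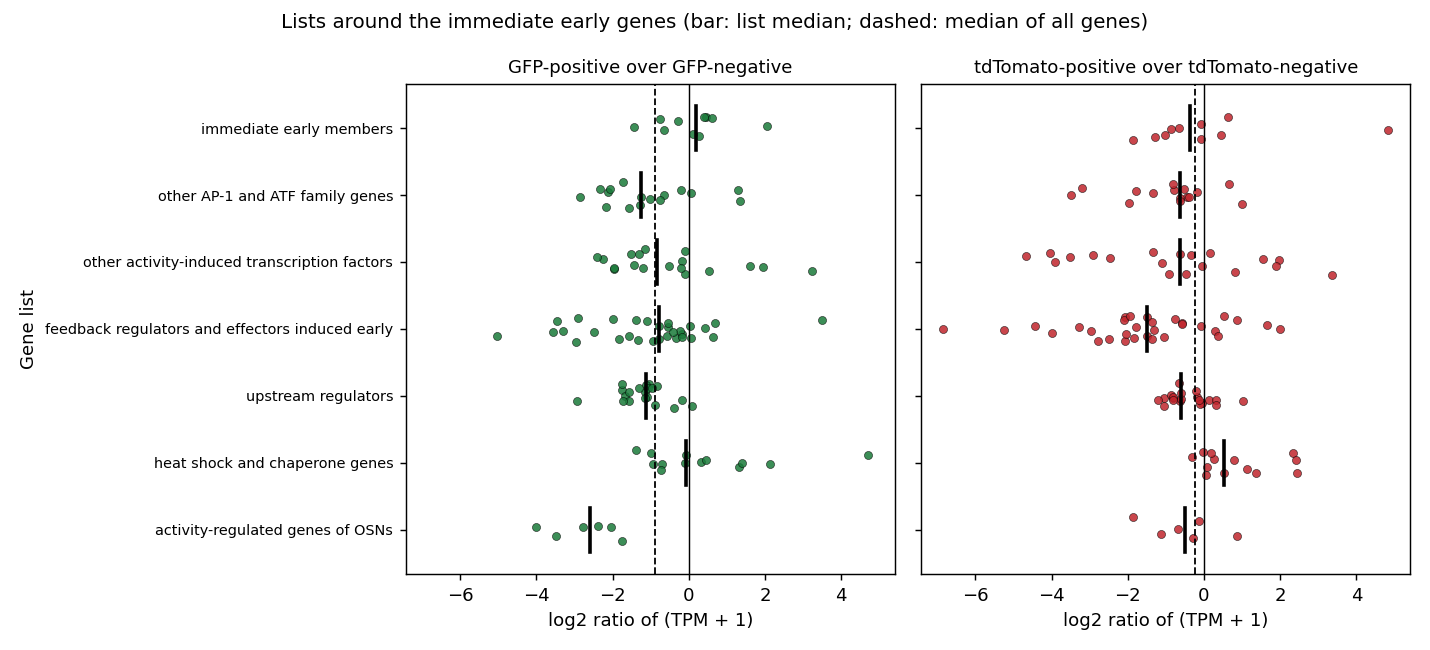
Log2 ratio of reporter-positive over reporter-negative cells for every gene of each list in the 2 lines, 1 library per group, with the list median and the median of all genes. Chaperone genes had medians of -0.07 and 0.53, and genes regulated by activity in OSNs -2.58 and -0.49, which became 0.18 and 0.50 with the mature OSN markers set equal.

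To see whether other genes had the same profile, the mean of the members' centred log2(TPM + 1) values, which was close to flat over the 4 libraries (0.08, 0.15, -0.12 and -0.11), was set against 12803 genes. The nearest 8 were *Magt1* (distance 0.0258), *Slc4a7* (0.0864), *Ybx3* (0.0920), *Gstk1* (0.0980), *Tvp23b* (0.104), *Taldo1* (0.109), *Cers4* (0.126) and *Pigu* (0.128). The members themselves lay farther off, from 0.29 for *Fos* to 3.87 for *Arc*. Over 4 libraries these distances are a description.

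*Fosb* lies at chr7:19302696-19310051, *Junb* at chr8:84974484-84978718, *Ier2* at chr8:84661331-84662852, *Atf3* at chr1:191170296-191218039, *Arc* at chr15:74669083-74672570 and *Npas4* at chr19:4984355-4990316, all on the minus strand. *Jun*, *Junb* and *Atf3* overlap genes on the opposite strand in the GENCODE M21 annotation. *Jun* overlaps the antisense RNA *Junos* over 689 bases, *Junb* overlaps *Prdx2* over 351 bases and *Atf3* overlaps *Gm24748* over 108 bases. The sources used here do not state whether strand entered the estimates, so reads of such pairs cannot be told apart.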

How the data were processed

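RNA of FACS-sorted MOE cells was sequenced as 4 libraries, 1 per group. The authors deposited 1 gene table of TPM, which is normalized for transcript length and library size. The submitters' processing notes name Trimmomatic 0.36, Salmon 1.4.0 and mm10, while the study's methods name Hisat2 and Cufflinks and another library kit than the labels. The annotation is not given in the sources used here. Depth is unknown, so no counting interval was given. All columns were used.

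Levels were compared as log2 ratios of (TPM + 1) for genes with at least 1 TPM in either library, and a size of 2-fold was used to count genes, with no test. Named were the 10 members, of each list the 4 genes highest in TPM and, per line, the highest and the lowest by ratio among genes with at least 10 TPM, and the 8 genes nearest to the members' mean profile. Of 6 pathway lists and 16 marker lists, symbols absent from the table were left out. The result of 1 marker list is not reported here. *Bag3*, *Ier3*, *Hsph1*, *Hspa1a* and *Hspa1b* were named after their values were seen. The members and lists were chosen with earlier results of these data known. Alternatives were pseudocounts of 0.1 and 10, 3 scalings, a minimum of 10 TPM, no minimum and a size of 1.5-fold. The code was tested on simulated data. Python 3.11.15, NumPy 2.4.6, pandas 2.3.3 and Matplotlib 3.10.9 were used.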

Additional observations from a re-analysis of the deposited data

Results flagged for a closer look

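Genes whose ratio of reporter-positive to reporter-negative cells was at least 1.5-fold in opposite directions in the 2 lines were picked out, and with 1 library per group the difference between the lines was not tested. *Atf3* stood at 0.60 in the GFP line and -1.01 in the tdTomato line (log2 ratio of TPM + 1). *Mafg*, a small MAF protein, stood at -1.24 and 0.66, *Ier3* at 0.68 and -1.95 and *Pcp4l1* at -1.76 and 0.88. Under 5 alternatives of scaling and pseudocount, the opposite values of at least 1.5-fold held in 5 for *Ier3*, 4 for *Pcp4l1*, 3 for *Atf3* and 2 for *Mafg*. *Atf3* lost them with a pseudocount of 10 (0.54 and -0.82) and with the OSN marker scaling (3.63 and -0.02), and under the latter *Mafg* (1.74 and 1.65) and *Pcp4l1* (1.29 and 1.90) were above 0 in both lines. Such opposite values were found for 4 of 106 genes of the lists (3.77%) and for 740 of all 13010 genes (5.69%).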

How the results depend on the processing

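No paired analysis over the 2 lines was run, the 4 groups hold a single library each, and nothing was tested. Values here are numbers of the 10 immediate early genes past the size used, or median log2 ratios. In the GFP line the median was 1.06 with median-ratio scaling and 3.23 with the mature OSN markers set equal. The number higher was 5 with median-ratio scaling (21.4% of all genes), 2 without the highest genes (17.6%), 9 with the OSN marker scaling (76.7%) and 2 at 1.5-fold (17.0%). The number lower was 0 with a pseudocount of 10 (24.0%), median-ratio scaling (21.7%), OSN marker scaling (7.83%) or a minimum of 10 TPM (48.1%) and 3 at 1.5-fold (60.5%). In the tdTomato line the OSN marker scaling gave a median of 0.60, 2 higher and 0 lower (37.4% and 12.6% of all genes), and 1.5-fold gave 2 higher and 5 lower (23.5% and 35.7%). Between the reporter-negative libraries 0 were lower with a pseudocount of 10 (3.22%), the OSN marker scaling (11.2%) or a minimum of 10 TPM (7.39%). Between the reporter-positive libraries a pseudocount of 0.1 gave 2 higher and 2 lower (38.3% and 12.9%), median-ratio scaling a median of -1.40 and 6 lower (19.0%), removal of the highest genes 6 lower (15.3%), the OSN marker scaling a median of -2.84, 0 higher and 8 lower (3.17% and 67.2%), and 1.5-fold 2 higher and 6 lower (55.0% and 15.4%). *Npas4* in the GFP line turned to 0.42 with the OSN marker scaling.

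For the lists, median-ratio scaling in the GFP line gave medians of -0.41 for other AP-1 and ATF genes, 0.012 for other transcription factors, 0.086 for feedback regulators, -0.33 for upstream regulators, 0.82 for chaperones and -1.82 for activity-regulated OSN genes, the last also -1.82 with a pseudocount of 10. The OSN marker scaling gave 1.71, 2.06, 2.24, 1.65, 2.99 and 0.18 in the GFP line and 0.36, 0.34, -0.51, 0.39, 1.54 and 0.50 in the tdTomato line, in the same order. These shifts follow from the scaling's own construction, which multiplies all TPM of a library by 1 factor. Of 40 single-gene values, 38 moved by less than 1.5-fold with a pseudocount of 0.1, 35 with 10, 22 with median-ratio scaling, 40 without the highest genes and 11 with the OSN marker scaling. Library depth is unknown, and the single library per group limits every comparison.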
